A study of Mus musculus with 4 samples.

Results

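Transcripts of the Tudor domain genes Tdrd1, Tdrd3, Tdrd5, Tdrd6, Tdrd7, Tdrd9, Tdrd12 and Tdrkh and of the RNA helicase gene Ddx4 were followed in whole male gonads of wild-type mouse embryos at 4 daily stages, from embryonic day 12.5 (E12.5) through E13.5 and E14.5 up to E15.5. The 9 genes were chosen by name, with earlier results of these data known. Probes were assigned to them through the RefSeq accession or gene name on the array. A probe was found for 6 of the 9, with 9 probes in all, and 5 genes passed the filter on dim probes and were tested among 21986 genes. Tdrd5, Tdrd9 and Tdrkh matched no probe and were not analysed here. All embryos were of the mouse line that the labels call MCH, with no treatment or mutation. Each stage had 2 one-colour Agilent arrays, described by the submitters as biological duplicates, which gave 8 arrays on 3 slides. The labels do not say how many embryos were pooled for an array, so the p-values rest on array-to-array spread alone, which may be technical.

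Tudor domains bind methylated arginine or lysine residues. In germ cells several Tudor proteins bind arginine-methylated PIWI proteins, and together with Ddx4, the mouse counterpart of Vasa, they gather in granules near the mitochondria. There PIWI-interacting RNAs (piRNAs), which silence transposons, are made and loaded. In the fetal testis this pathway becomes active as male germ cells leave the cell cycle. Because whole gonads were measured, fewer cells of a type and less RNA per cell cannot be told apart.

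Signals are given as log2 of the processed signal minus the 75th percentile of that array, so 0 is the level of a probe at that percentile. The slides set what each comparison can show. The first array of E12.5 shared slide 1 with the first of E13.5, and their second arrays shared slide 2. The later stages had all 4 of their arrays on slide 3. Their scanner files came from another version of the extraction software, 9.5.3.1 against 9.1.3.1 for the earlier stages. The first and the last daily step were thus compared within slides. The step between E13.5 and E14.5 and the whole span, E15.5 against E12.5, ran across slides, so there slide and stage cannot be told apart. Between 60.3% and 69.8% of probes were well above background on an array, and 75th percentiles of the processed signal ran from 802 to 1784. Markers chosen for the tissue were present: all 10 germ cell markers, all 8 Sertoli cell markers and all 6 fetal Leydig cell markers passed the filter.

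The start regions of the genes are shown first, since Tdrd1, Tdrd7, Ddx4 and Tdrd12 are the genes on which the results turn. The windows are from RefSeq on GRCm38.p6, and each holds 300 bases, 250 before and 50 after an annotated start. The table had a window for 8 of the 9 genes, all but Tdrd6, and the most 5′ window was taken where a gene had several. Capitals mark an E-box, CACGTG, or an E2F core, TCCCGC with its reverse complement GCGGGA, searched on both strands. The Tdrd1 window lies at chr19:56825959-56826258 (plus strand), the Ddx4 window at chr13:112652261-112652560 (minus strand), the Tdrd7 window at chr4:45965085-45965384 (plus strand) and the Tdrd12 window at chr7:35537695-35537994 (minus strand).
Tdrd1: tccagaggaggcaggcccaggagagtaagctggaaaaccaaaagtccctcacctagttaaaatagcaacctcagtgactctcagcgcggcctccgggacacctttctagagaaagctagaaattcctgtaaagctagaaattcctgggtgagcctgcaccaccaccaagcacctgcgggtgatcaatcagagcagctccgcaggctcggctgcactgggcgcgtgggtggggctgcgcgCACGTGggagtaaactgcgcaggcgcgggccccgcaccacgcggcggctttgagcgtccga
Ddx4: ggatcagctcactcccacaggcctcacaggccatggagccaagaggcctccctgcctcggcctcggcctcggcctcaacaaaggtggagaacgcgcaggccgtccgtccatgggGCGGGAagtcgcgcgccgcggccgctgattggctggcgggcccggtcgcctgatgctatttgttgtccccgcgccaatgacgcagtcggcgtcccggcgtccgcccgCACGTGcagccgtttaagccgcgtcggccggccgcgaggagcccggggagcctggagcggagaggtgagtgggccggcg
Tdrd7: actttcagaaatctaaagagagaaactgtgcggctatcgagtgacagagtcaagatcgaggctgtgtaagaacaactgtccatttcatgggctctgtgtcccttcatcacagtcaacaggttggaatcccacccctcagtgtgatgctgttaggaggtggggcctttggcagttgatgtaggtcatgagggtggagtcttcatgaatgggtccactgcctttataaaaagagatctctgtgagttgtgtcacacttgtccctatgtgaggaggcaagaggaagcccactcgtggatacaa
Tdrd12: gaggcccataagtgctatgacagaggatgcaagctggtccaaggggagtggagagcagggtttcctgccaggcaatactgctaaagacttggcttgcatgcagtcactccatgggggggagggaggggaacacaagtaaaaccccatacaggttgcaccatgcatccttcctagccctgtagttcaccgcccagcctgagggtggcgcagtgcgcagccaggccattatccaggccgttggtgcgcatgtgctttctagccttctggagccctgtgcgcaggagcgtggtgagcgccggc
An E-box began 11 bases before the start of Tdrd1 and 29 bases before the start of Ddx4. Tdrd9 held CACGTG at 165 and 95 bases before its start, so 3 of the 8 windows held it, beside 7.15% of all 32851 windows in the table. An E2F core stood in 3 of the 8 windows, those of Tdrd3, Tdrd5 and Ddx4, beside 20% of all windows. These letters were absent from the Tdrd7, Tdrd12 and Tdrkh windows. CpG dinucleotides numbered 20 in the Tdrd1 window, 38 in that of Ddx4, 43 in that of Tdrd3, 9 in that of Tdrd12 and 4 in that of Tdrd7, beside a median of 7 over all windows. Tdrd7 had another pair of windows further downstream, with 32 CpG each and neither motif. Tdrd1 also had a pair further downstream, the nearer with 25 CpG and 1 E-box and the farther with 3 CpG and 0 E-boxes. The positions above are thus those of the most 5′ start. Tdrd12 had another window with 11 CpG and neither motif. The matches describe the letters only, and no binding was measured.

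Among the Tudor proteins that bind PIWI proteins, Tdrd1 showed the largest change of the 5 tested genes. Tdrd1 binds Piwil2 (MILI) and is needed for silencing of transposons in the male germ line. Its signal was 0.91 and 1.14 on the E12.5 arrays, 3.23 and 3.24 on the E13.5 arrays, 5.10 and 4.32 on the E14.5 arrays, and 4.33 and 4.98 on the E15.5 arrays. No array of E13.5 reached down to E12.5, both E14.5 arrays lay above E13.5, and E14.5 and E15.5 overlapped. From E12.5 to E13.5 Tdrd1 rose by log2 2.21 ± 0.33 (4.63-fold; ± is the standard error of limma, n = 2 arrays per stage; Benjamini-Hochberg adjusted p = 0.0190), with 2.32 on slide 1 and 2.10 on slide 2. From E13.5 to E14.5, across slides, it rose by a further 1.48 ± 0.33 (adjusted p = 0.0369). From E14.5 to E15.5 the difference was -0.05 ± 0.33 (95% interval -0.84 to 0.73, adjusted p = 1.0). Over the whole span, also across slides, Tdrd1 rose by 3.63 ± 0.33, or 12.4-fold (adjusted p = 0.000599). The first step lost its call when 1 array of E12.5 or E13.5 was left out, with changes of 2.10 and 2.33 and adjusted p of 0.0718 and 0.0801 without E12.5 array 1 and array 2, and 2.21 in both cases with 0.0907 and 0.106 without E13.5 array 1 and array 2. The second step was called in 7 of 19 alternative settings, and the rise over the whole span in 19 of 19. In none of these settings can slide and stage be told apart for those 2 comparisons.

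A second Tdrd1 probe, matched to another transcript accession of the gene, gave the same course at a smaller size. Its signal was -4.50 and -4.28 at E12.5, -2.31 and -2.37 at E13.5, -1.94 and -1.31 at E14.5, and -1.59 on both arrays of E15.5. Its change was 2.05 from E12.5 to E13.5, 0.71 from E13.5 to E14.5 and 2.81 from E12.5 to E15.5. The rise across slides from E13.5 to E14.5 was thus 1.64-fold by this probe and 2.78-fold by the brighter one. From E14.5 to E15.5 the second probe moved by 0.04.

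Tdrd7, a Tudor protein of the germ cell granules that is also made in the lens, rose over the whole span. It read 1.59 and 1.86 at E12.5, 2.88 and 2.83 at E13.5, 3.93 and 3.32 at E14.5, and 3.47 and 4.20 at E15.5. The E13.5 arrays lay above both E12.5 arrays, the E14.5 arrays lay above both E13.5 arrays, and E15.5 overlapped E14.5. Its increase from E12.5 to E15.5, across slides, was log2 2.11 ± 0.32, or 4.32-fold (adjusted p = 0.00381). This call held in 19 of 19 alternative settings, but slide and stage cannot be told apart in any of them. The single steps did not pass: 1.13 ± 0.32 from E12.5 to E13.5 (1.29 on slide 1 and 0.97 on slide 2; adjusted p = 0.123) and 0.77 ± 0.32 from E13.5 to E14.5 (adjusted p = 0.154). The last step was 0.21 ± 0.32.

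Tdrd12, which acts in the making of secondary piRNAs, had its highest level at E13.5. The arrays read 1.33 and 1.60 at E12.5, 1.90 and 2.53 at E13.5, 1.62 and 1.04 at E14.5, and 0.87 and 1.04 at E15.5. The E13.5 arrays were above all others, and both E15.5 arrays were below both E12.5 arrays. No step passed the test. Differences were 0.75 ± 0.30 from E12.5 to E13.5 (0.57 on slide 1 and 0.92 on slide 2; adjusted p = 0.266), -0.88 ± 0.30 from E13.5 to E14.5 (adjusted p = 0.0966), -0.38 ± 0.30 from E14.5 to E15.5 (adjusted p = 0.892) and -0.51 ± 0.30 over the span (95% interval -1.22 to 0.20, adjusted p = 0.217). A second Tdrd12 probe gave differences of 0.69, -0.86, -0.54 and -0.71 in the same order. Tdrd12 was the one tested gene of the group whose later arrays lay below the earlier ones over the whole span.

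Ddx4, the helicase that marks germ cells from the time they settle in the gonad, was well above background on all 8 arrays. Its signal was 3.05 and 3.11 at E12.5, 3.84 and 3.87 at E13.5, 4.56 and 3.72 at E14.5, and 3.61 and 4.33 at E15.5. The E13.5 arrays lay above both E12.5 arrays, and the later stages overlapped with E13.5. The first step was 0.78 ± 0.34 (0.79 on slide 1 and 0.76 on slide 2; adjusted p = 0.325, 95% interval -0.05 to 1.60). Over the span the difference was 0.89 ± 0.34, with an interval of 0.06 to 1.72 and an adjusted p of 0.0881, so it was not called. Under 19 alternative settings that difference ranged from 0.53 to 1.25 and its adjusted p from 0.0208 to 0.379, with 3 calls. The 3 calls came with quantile normalization, with the repaired normexp correction described with the processing, and without E14.5 array 2 and E15.5 array 1.

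Tdrd3, a Tudor protein of many tissues that works with a topoisomerase on RNA, stayed within a narrow range. It read 2.22 and 2.17 at E12.5, 2.33 and 2.25 at E13.5, 2.91 and 2.36 at E14.5, and 2.38 and 2.70 at E15.5. Changes were 0.10 ± 0.24, 0.34 ± 0.24 and -0.09 ± 0.24 for the successive days, with adjusted p of 0.930, 0.359 and 1.0. Over the span the difference was 0.35 ± 0.24 (95% interval -0.23 to 0.92, adjusted p = 0.293). A second Tdrd3 probe gave 0.15, 0.35, -0.10 and 0.40 in the same order.

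Tdrd6, a component of the chromatoid body of spermatids, was near background. Its probe was well above background on 4 of 8 arrays, 1 of each stage, and it did not pass the filter. Those readings were -5.37 on E12.5 array 1, -5.09 on E13.5 array 1, -5.78 on E14.5 array 2 and -4.88 on E15.5 array 1. With no filter on dim probes limma called none of its changes, which were -0.02, -0.76, 1.41 and 0.63 (± 0.56 each) for the successive days and the whole span, with adjusted p from 0.485 to 1.0.

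**Figure D1:**
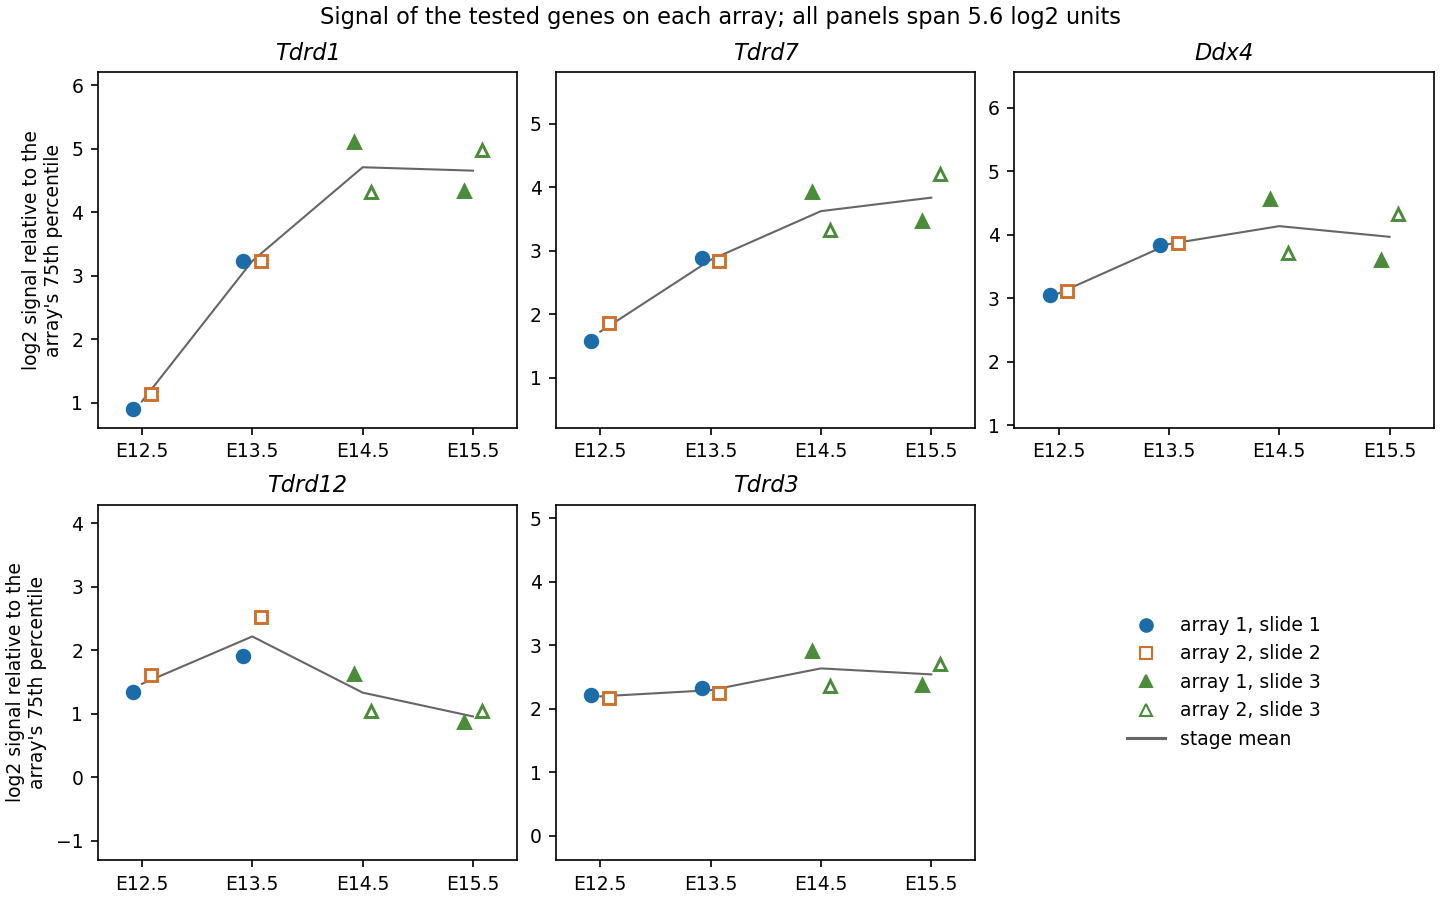
Log2 signal relative to the array's 75th percentile (y) at each stage (x) for the 5 tested genes; filled symbols are array 1, open symbols array 2, colours and shapes the slides, and lines join stage means. Tdrd1 climbs from 0.91 and 1.14 to 4.33 and 4.98, Tdrd3 stays between 2.17 and 2.91, and at E14.5 array 1 is the higher in every panel.

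Counted together, 1 of the 5 tested genes was called higher from E12.5 to E13.5 (Tdrd1), beside 2.68% of all genes tested, and the later arrays lay above the earlier ones for 5 of 5, beside 22.3% of all genes. The median change was 0.78 for the 5 genes and -0.06 for all genes. From E13.5 to E14.5, across slides, 1 of 5 was called higher, beside 6.44% of all genes, and 0 were called lower, beside 6.05%. Both E14.5 arrays lay above E13.5 for 3 of 5 (29.2% of all genes) and below for 1 of 5 (30.8%), with medians of 0.34 and -0.02. From E14.5 to E15.5 limma called 0 of 5, and 0 had an unadjusted p under 0.05, beside 0.655% of all genes called in either direction. The median was -0.09 for the 5 genes and 0.01 for all. Over the whole span 2 of 5 were called higher, Tdrd1 and Tdrd7, beside 17.6% of all genes, and 0 lower, beside 17.4%. The later arrays lay above for 4 of 5 (34.7% of all genes) and below for Tdrd12 alone (39.3%), and the medians were 0.89 and -0.07. In the test over all stages 2 of 5 were called, beside 31.1% of all genes, with adjusted p of 0.00153 for Tdrd1, 0.0111 for Tdrd7, 0.0659 for Tdrd12, 0.148 for Ddx4 and 0.409 for Tdrd3. Over the whole span the count was 3 in the 3 alternative settings that also called Ddx4, and 2 in the others. The count for the first step was 0 without any 1 of the 4 arrays compared.

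**Figure D2:**
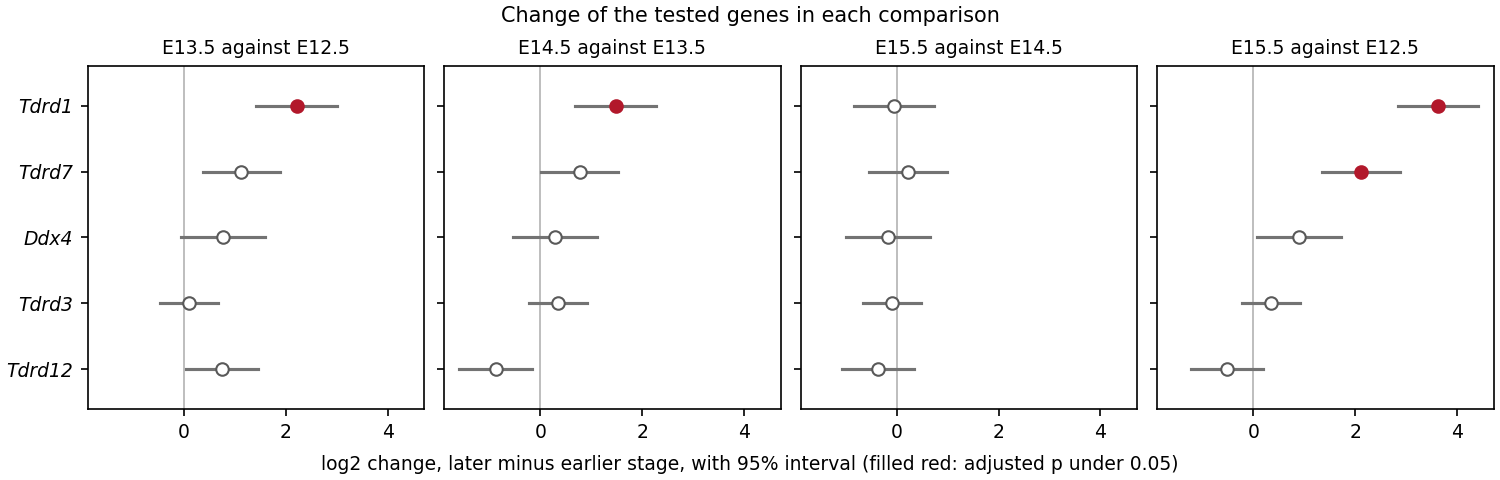
Log2 change of the later minus the earlier stage (x) with 95% intervals of limma for the 5 tested genes (y), 1 panel per comparison; filled red points passed the test. Tdrd1 lies at 2.21 in the first panel and 3.63 in the last, and all 5 intervals for E15.5 against E14.5 include 0.

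The arrays of slide 3 differed in the same way for all 5 genes. E14.5 array 1 exceeded array 2 by 0.79 for Tdrd1, 0.55 for Tdrd3, 0.61 for Tdrd7, 0.58 for Tdrd12 and 0.84 for Ddx4. E15.5 array 2 exceeded array 1 by 0.65, 0.32, 0.74, 0.17 and 0.72 in the same order. Such gaps were not limited to these genes. Across 21986 genes the E14.5 gap and the E15.5 gap, so turned, correlated at r = 0.59. In both gaps 7.15% of genes were above 0.5 and 7.40% were below -0.5. Tdrd1, Tdrd7 and Ddx4 were above 0.5 in both, and Tdrd3 and Tdrd12 were above it at E14.5 only. For E12.5 and E13.5 the gap between array 1 and array 2 correlated at r = 0.65. These values are across genes, which share the arrays and are not independent replicates. Probes of 1 gene did not always share them. The dimmer Tdrd1 probe was lower on E14.5 array 1, by 0.63, and level at E15.5 with a gap of 0.00, and the dimmer Tdrd3 probe was lower by 0.15 and 0.18. The dimmer Tdrd12 probe, in contrast, was higher by 0.65 and 0.02. What sets these gaps was not tested. Without E14.5 array 1 and E15.5 array 2, Tdrd1 changed by 1.08 from E13.5 to E14.5 (adjusted p = 0.109), and Ddx4 by -0.14 in that step and 0.53 over the span.

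**Figure D3:**
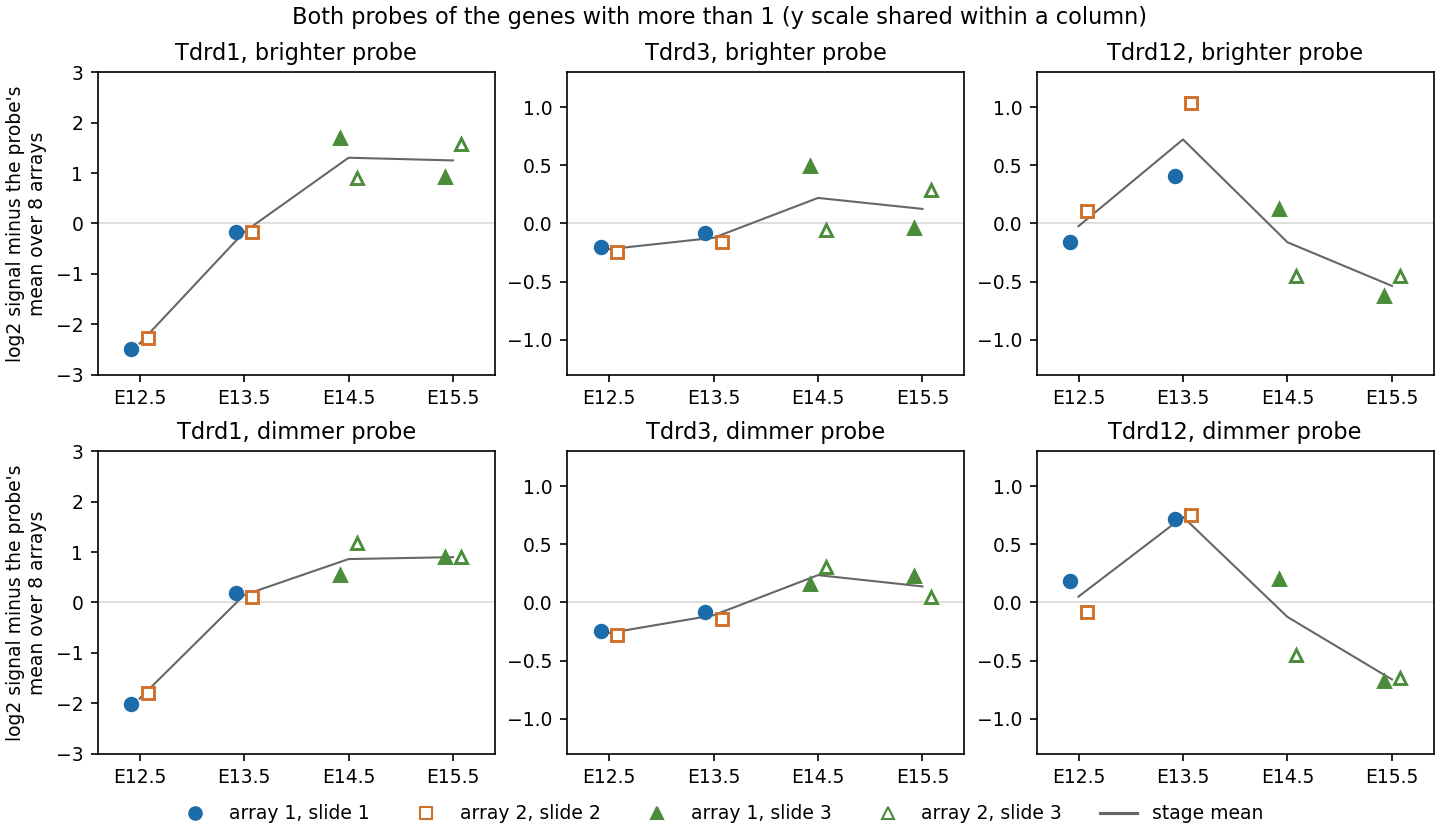
Log2 signal minus the probe's own mean over 8 arrays (y) at each stage (x) for both probes of Tdrd1, Tdrd3 and Tdrd12; symbols as for the signal of the tested genes. Stage means follow the same course in each pair of panels, whereas the slide 3 arrays stand in the opposite order for the 2 probes of Tdrd1 at E14.5.

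Profiles were compared over the 8 arrays after each gene was centred on its own mean, by the root mean square difference of log2 values among 13480 other genes with a symbol. Nearest to Tdrd1 were Pdha2, a pyruvate dehydrogenase subunit of the testis, at 0.14, Fkbp6, a co-chaperone of the piRNA pathway, at 0.23, and Mageb1 at 0.24. Tdrd7 was nearest to Cfi, a complement factor, at 0.14, the endothelial receptor gene Thbd at 0.15 and the testis helicase gene Ddx25 at 0.17. Nearest to Tdrd12 were Spic (0.15), Avpi1 (0.17) and Dusp19 (0.17), and to Ddx4 were Wdr59, Mien1 and Ccdc28b (all 0.13). Tdrd3 had Snx4 (0.04), Morf4l1 (0.05) and Rex1bd (0.05). Within the group, Tdrd3 and Ddx4 were the closest pair at 0.30 and Tdrd1 and Tdrd12 the most distant at 1.72. For that closest pair, 3284 other genes were nearer to Tdrd3 than Ddx4 was, and 474 were nearer to Ddx4 than Tdrd3 was. Tdrd1 and Tdrd7 lay at 0.68, with 265 genes nearer to Tdrd1 and 2784 nearer to Tdrd7. The nearest genes changed with the arrays used: without E14.5 array 1 and E15.5 array 2, 3 of 3 stayed among the 20 nearest for Tdrd1, Tdrd7 and Tdrd12, 2 for Tdrd3 and 0 for Ddx4. They changed with the processing too: 1 of 3 stayed for Tdrd1 under the repaired normexp correction, and 0 of 3 for Tdrd3 with the mean of the probes of a gene.

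Several partners of these proteins in the piRNA pathway rose with the first step. Of 13 listed partners 10 were tested. Like the 9 genes, this list was chosen with earlier results of these data known. From E12.5 to E13.5 limma called 6 of 10 higher and 0 lower, beside 2.68% and 1.3% of all genes. The list median was 1.49, beside -0.06 for all genes. Henmt1, which methylates the ends of piRNAs, rose by 3.86 ± 0.35 (adjusted p = 0.00410), the PIWI gene Piwil1 by 2.64 ± 0.45 (adjusted p = 0.0304) and Mael, a granule protein, by 2.16 ± 0.21 (adjusted p = 0.00469). The probes of Henmt1 and Piwil1 were not well above background on E12.5 array 2 and were so on the other 7 arrays. Under alternative settings the first step ranged from 1.82 to 4.26 for Henmt1, called in 15 of 19, and from 1.20 to 3.15 for Piwil1, called in 9 of 19, both lowest with the repaired normexp correction. That count of 6 was 0 under plain normexp, 3 with no filter, 0 when the 4 arrays compared were fitted alone or when 1 array of each later stage was left out, and 2 or 3 without any 1 array of E12.5 or E13.5 or 1 of E15.5.

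From E13.5 to E14.5 Piwil2, the PIWI partner of Tdrd1, rose by 1.54 ± 0.22 (adjusted p = 0.0133). Prmt5, the enzyme that methylates PIWI arginines, fell by 1.26 ± 0.27 on the log2 scale (adjusted p = 0.0320). The Piwil2 call held in 13 of 19 alternative settings and the Prmt5 call in 7 of 19. From E14.5 to E15.5 limma called 0 of 10, beside 0.655% of all genes in either direction, with 2 at an unadjusted p under 0.05. Over the span 7 of 10 were called higher and 2 lower, beside 17.6% and 17.4% of all genes, with a median of 2.10. Henmt1 rose by 5.22 ± 0.35, Piwil1 by 3.72 ± 0.45 and Fkbp6 by 3.58 ± 0.43, and all 3 stayed called in every alternative setting in which they were tested. The sizes ranged from 2.90 to 5.56 for Henmt1, from 1.96 to 4.23 for Piwil1 and from 3.01 to 4.03 for Fkbp6 over those settings. A second Fkbp6 probe gave 2.43. Prmt5 changed by -1.20 ± 0.27 (adjusted p = 0.0151) and its partner Wdr77 by -0.73 ± 0.21 (adjusted p = 0.0373), and the Wdr77 call held in 6 of 19 settings.

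Of 8 Tudor genes outside the group 5 were tested, and limma called 0 for any single day. The shares of all genes called in either direction were 3.98%, 12.5% and 0.655% for the successive days. At an unadjusted p under 0.05 there were 1, 0 and 0 of the 5. Over the span 1 of 5 was called higher and 1 lower, beside 17.6% and 17.4% of all genes. Stk31, a germ cell protein with a Tudor domain, rose by 1.63 ± 0.36 (adjusted p = 0.0147) and Smn1, of the splicing machinery, fell by 0.65 ± 0.17 on the log2 scale (adjusted p = 0.0265). These calls held in 14 and 7 of 19 settings, and both were lost without E12.5 array 2 or E15.5 array 1. Snd1, Akap1 and Smndc1 were not called, at -0.24, -0.77 and 0.34. Of 15 genes whose Tudor domains read chromatin, 12 were tested. Again limma called 0 for single days, beside the same 3.98%, 12.5% and 0.655%, with 2, 2 and 0 at an unadjusted p under 0.05. Over the span 1 of 12 was called higher and 2 lower, beside the same 17.6% and 17.4%. The Polycomb factor Phf1 rose by 0.82 ± 0.19 (adjusted p = 0.0177), while the lamin B receptor gene Lbr changed by -0.84 ± 0.19 (adjusted p = 0.0174) and Phf19 by -0.83 ± 0.22 (adjusted p = 0.0265). Without E12.5 array 1, E12.5 array 2, E15.5 array 1 or E15.5 array 2 the chromatin list had 0 calls. The medians over the span were -0.24 and -0.30 for these lists, beside -0.07 for all genes and 0.89 for the 5 tested genes of the group.

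Of 12 DEAD-box relatives of Ddx4, 10 were tested. Over the span 2 of 10 were called higher and 3 lower, beside 17.6% and 17.4% of all genes. Ddx25, a helicase of Leydig and germ cells, rose by 1.97 ± 0.26 (adjusted p = 0.00250) and Ddx5 by 0.93 ± 0.26 (adjusted p = 0.0313), although a second Ddx5 probe gave -0.45. Ddx6, of the processing bodies, changed by -2.03 ± 0.32 (adjusted p = 0.00463), with -1.37 ± 0.32 of that from E13.5 to E14.5 (adjusted p = 0.0413, called in 8 of 19 settings). Ddx39b changed by -0.72 ± 0.21 (adjusted p = 0.0350) and the Y-linked Ddx3y by -0.68 ± 0.19 (adjusted p = 0.0332). The calls over the span held in 19 of 19 settings for Ddx25 and Ddx6. They held in 10 of 19 for Ddx5 and for Ddx3y, and in 5 of 19 for Ddx39b. Under plain normexp, with no filter or with the compared arrays alone, 2 of the 5 calls remained. The count of 5 was 2 without E12.5 array 2, E15.5 array 1 or E15.5 array 2, and 3 without E12.5 array 1.

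**Figure D4:**
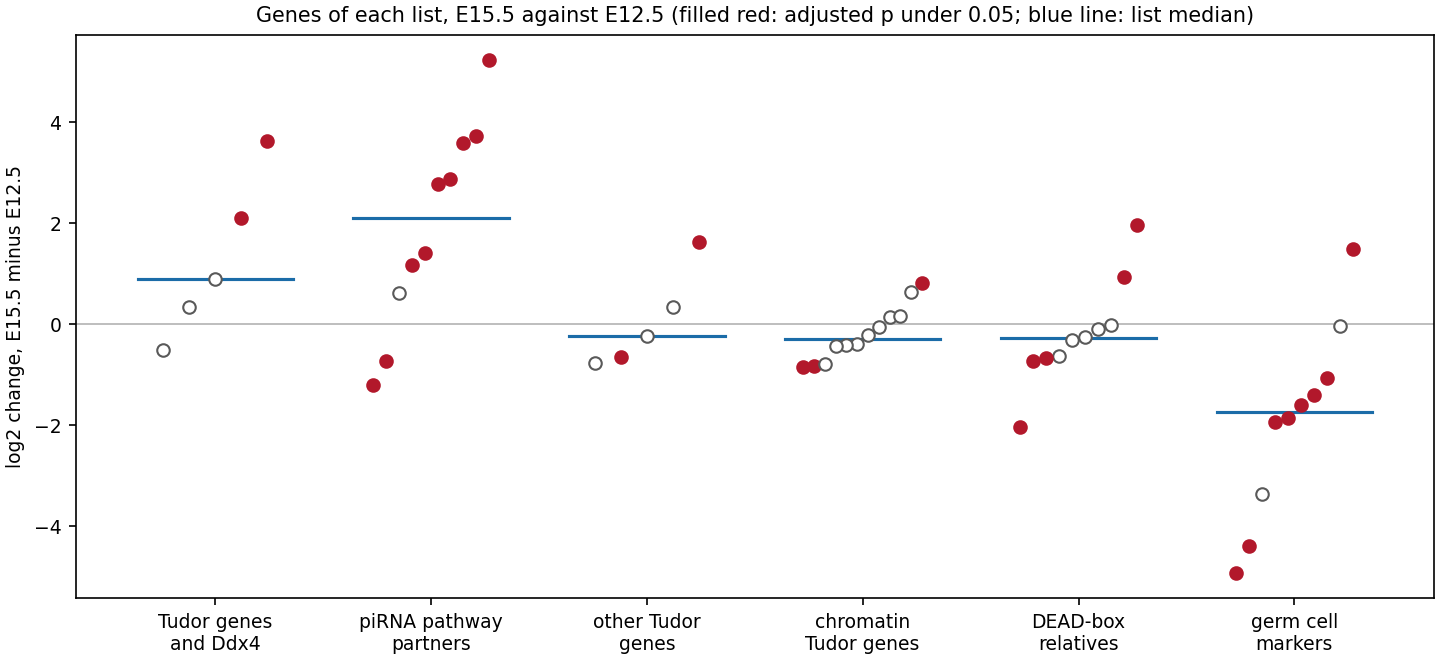
Log2 change from E12.5 to E15.5 (y) of each tested gene, by list (x); filled red points passed the test and blue lines are list medians. The piRNA partners have a median of 2.10 with 7 of 10 called higher, beside 17.6% of all genes. The germ cell markers have a median of -1.74 with 7 of 10 called lower, beside 17.4%.

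Markers of other cell types moved over the same days. Of all genes, 17.6% were called higher and 17.4% lower over the span. Of 10 germ cell markers 7 were called lower and 1 higher over the span, with a median of -1.74, and their mean log2 signal was 2.01 and 2.30 on the E12.5 arrays and 0.35 and 0.13 on the E15.5 arrays. The list holds pluripotency genes of early germ cells such as Pou5f1, Dppa3 and Utf1. It also holds Dnd1, the 1 called higher at 1.48 ± 0.21, and Dazl, called lower at -1.61 ± 0.24. Kit and Sall4 were not called, at -0.03 ± 0.23 and -3.36 ± 1.65. All 6 fetal Leydig cell markers were called higher, with a median of 2.62, and 5 of 5 erythroid markers lower, with a median of -5.75. For Sertoli cells 1 of 8 was called higher and 1 lower, with a median of -0.40. Of 6 endothelial markers 0 were called higher and 2 lower, with a median of -0.26 (range -2.59 to 0.55). Of 5 markers of the mesonephros and nephric duct 1 was called higher and 2 lower, with a median of -2.32 (range -5.66 to 1.56). Of 3 tested macrophage markers 2 were called higher and 0 lower, with a median of 0.91 (range 0.75 to 1.41). The part of these cell types in the changes of Tdrd1 and Tdrd7 was not tested.

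The authors' deposited table, a ratio per probe and stage to a centre of unknown rule and scale, rests on the same arrays. For Tdrd1 the authors' deposited table gave 0.545, 2.32, 6.67 and 5.41 from the earliest to the latest stage. For Tdrd7 the authors' deposited table gave 0.534, 1.07, 1.89 and 1.84, for Tdrd12 1.02, 1.57, 0.877 and 0.569, and for Ddx4 0.635, 1.0, 1.26 and 0.942. Tdrd3 ranged there from 0.911 to 1.19. The order of the stages was thus the same as in the scanner values for Tdrd1 and Tdrd12. It differed for Ddx4, where E13.5 stood above E15.5, for Tdrd7, where E14.5 was the highest, and for Tdrd3, where E12.5 stood above E13.5.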

How the data were processed

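RNA of 4 stages was measured on 8 one-colour arrays. The deposited scanner files hold spot intensity; per the file headers Agilent Feature Extraction, 9.1.3.1 for E12.5 and E13.5 and 9.5.3.1 for the later stages (9.5 per the submitters' processing notes), had subtracted background. The authors' value table holds a ratio per stage, with column medians of 1.14, 1.00, 0.898 and 0.859. Its scale and centring are unknown. Its direction follows the scanner values for the called changes of Tdrd1 and Tdrd7. Some uncalled changes differ in sign, such as Tdrd3 at E13.5 against E12.5, with log2 -0.02 there and 0.10 in the scanner values.

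Spots of a probe were averaged. Log2 signals were centred on each array's 75th percentile, and probes well above background on both arrays of a stage were kept (28188 of 41174). RefSeq accessions gave a GRCm38.p6 symbol to 22951 probes (55.7%). The probe of highest mean stood for a gene; others are given where the sign differs or the change differs by more than 1.5-fold. limma 3.58.1 in R 4.3.3 fitted 1 mean per stage over 21986 genes, with 4 residual and 2.57 prior degrees of freedom. P-values were Benjamini-Hochberg adjusted over all genes tested, and calls made at 0.05. All comparisons share this variance, and successive ones share arrays.

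The members and lists were chosen with earlier results of these data known. All members are named, as are up to 3 called genes per list, comparison and direction, and the 3 nearest profiles per member. Alternatives were normexp (offset 50, on median signals, since the files give no mean signal), quantile and median scaling, both filters, slide blocks, the compared arrays alone, the mean of probes and each array left out. After the data were seen, normexp with 3 extreme local backgrounds replaced by the array's median, and fits without 1 array each of E14.5 and E15.5, were added. The fit was tested on simulated data.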

Additional observations from a re-analysis of the deposited data

How the results depend on the processing

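Over the whole span the count of called members was 2, or 3 where Ddx4 was also called (quantile normalization, normexp with replaced backgrounds, and without E14.5 array 2 and E15.5 array 1), and no called change of a member reversed. The E13.5 against E12.5 count of 1 became 0 under plain normexp and ranged from 0 to 1 when single arrays were left out. The E14.5 against E13.5 count of 1 became 0 under normexp, median scaling, no filter, the compared arrays alone, and without E14.5 array 1 and E15.5 array 2, and ranged from 0 to 1 with single arrays left out. The count over all stages was 1 under normexp and from 1 to 2 with single arrays left out. Plain normexp, which met 3 extreme local backgrounds, moved the median of all genes from -0.06 to 0.29 at E13.5 against E12.5 and left 2 genes called there. With those values replaced, 554 genes were called, beside 876.

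Uncalled changes near 0 reversed. Tdrd3 at E13.5 against E12.5 was -0.14 under normexp. Ddx4 at E14.5 against E13.5 was -0.14 without E14.5 array 1 and E15.5 array 2 and ranged from -0.14 to 0.70 with single arrays left out. At E15.5 against E14.5 Tdrd1 was 0.037 under quantile normalization and 0.016 without E14.5 array 1 and E15.5 array 2, and Tdrd3 was 0.020 in the latter; with single arrays left out Tdrd1 ranged from -0.45 to 0.34, Tdrd3 from -0.37 to 0.18, Tdrd7 from -0.16 to 0.58 and Ddx4 from -0.59 to 0.25. The cause was not tested.

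Median scaling moved the median of all genes to -0.13 at E15.5 against E14.5 and -0.11 over the span. With slide as a fixed block only the comparisons within slides could be fitted, and the counts were 1 and 0. That block pairs E12.5 and E13.5 arrays by slide, not by a replicate number, and gave Tdrd1 a first step of 2.21 (adjusted p = 0.0298). No paired analysis was possible by replicate number because the labels give the arrays none. The number of arrays, 2 per stage, limits the precision.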
